A study of Mus musculus with 15 samples.

Results

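Peptide hormones are made as larger precursors that are cut and trimmed in the secretory pathway. The 8 genes described here encode enzymes of that pathway and 1 inhibitor: the prohormone convertases Pcsk1 and Pcsk2, the convertase inhibitor Pcsk1n, the convertase Furin, the carboxypeptidases Cpe and Cpd, the amidating enzyme Pam and the glutaminyl cyclase Qpct. They were chosen by gene symbol from 38283 genes, all 8 had a row, and all 8 passed the filter of a mean above 1 FPKM in at least 1 cell type, as did 14405 genes in all. FPKM counts sequenced fragments relative to transcript length and to the mapped fragments of the sample.

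RNA was sequenced from 15 samples of FACS-purified mouse pancreatic islet cells on a C57BL/6 background, with no treatment named. Glu-Venus mice supplied alpha cells (n = 5) and beta cells (n = 4). They carry the fluorophore Venus under the proglucagon promoter, and their beta cells were sorted as Venus-negative cells of high autofluorescence and high scatter. For delta cells (n = 6), Sst-CreXROSA26EYFP/EYFP mice were used, in which Cre driven by the Sst promoter switches on EYFP. Any comparison with delta cells thus compares mouse lines too. Each sample pooled islets from several mice and its RNA was amplified, and ages are not given in the sources used here.

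In endocrine cells, Pcsk1 and Pcsk2 cleave precursors after pairs of basic residues inside the secretory granule. Cpe then removes the exposed basic residues, and Pam amidates peptides that end in glycine. Beta cells are known to use Pcsk1 and Pcsk2 together to make insulin, and alpha cells to use Pcsk2 to make glucagon. Furin and Cpd belong to the trans-Golgi network of most cells.

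These cleavage sites are shown because they are the pairs on which the convertases act in the hormone of each cell type. They are 30-base stretches of coding sequence from GENCODE transcripts (GRCm38), read 5′ to 3′ on the coding strand, with the codons of the basic pair in capitals. The Ins2 sites lie on the minus strand at chr7:142679354-142679383 and chr7:142678767-142678796 and flank the C-peptide, the Gcg site lies at chr2:62478641-62478670 and the Sst site at chr16:23889762-23889791, both on the minus strand.
Ins2, pair before the C-peptide: acacccatgtccCGCCGTgaagtggaggac
Ins2, pair after the C-peptide: gtggcccagcagAAGCGTggcattgtagat
Gcg, pair before glucagon: atgaatgaagacAAACGCcactcacagggc
Sst, pair before the shorter somatostatin: gcaccccgggaaCGCAAAgctggctgcaag

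The hormone genes Gcg, Ins1, Ins2 and Sst matched the labels. No alpha sample overlapped the other cell types in Gcg, no beta sample in Ins1 or Ins2, and no delta sample in Sst. Other hormone RNA was present too. Sst was at 1139 to 2427 FPKM in alpha and 37.9 to 461 in beta samples. Ppy ran from 17727.7 to 41391.5 FPKM in alpha, 16.9 to 98.1 in beta and 10856.8 to 48599.6 in delta samples. Whether the sorts held other hormone cells was not tested. Between 14761 and 18559 genes had a value above 0 in a sample. Depth could be judged from the steps of low values in 6 samples, at 7.3 M to 30.4 M reads, and stayed unknown in 9. The samples fell into 2 sets by the FPKM of 83 ribosomal protein genes, and each set held all cell types. The sum ran from 65596 to 140964 in 6 samples (alpha 1 to 3, beta 2, delta 1 and 2) and from 7912 to 38761 in the other 9. These are called the higher and the lower ribosomal set below. Markers of other cells were also summed. The summed FPKM of 8 acinar genes ran from 0.122 to 86.7 in alpha, from 0.0447 to 15.8 in beta and from 3.03 to 521 in delta cells, where the highest value was delta sample 4 and the next was 87.8. Amy2a5 was listed at 0 in all samples. The sum of 5 duct genes ran from 25.4 to 172 in alpha, from 8.56 to 24.7 in beta and from 20.4 to 101 in delta cells, so that alpha and beta samples did not overlap, and Krt19 was listed at 0 in all delta samples. Endothelial, leucocyte, mesenchymal and glial lists stayed at or below 9.26, and the mesenchymal sum was 0.848 to 3.81 in alpha cells and at most 0.0576 in the others. Their part in the results was not tested.

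Cpe, Pcsk2 and Pam were the members with the highest mean FPKM in every cell type, and their samples overlapped in each. Qpct and Furin were at most 11.9 FPKM in any sample. Pcsk1 held the last place among the members in alpha cells, the fourth in beta cells and the fifth in delta cells. All levels are FPKM as deposited, and in bulk RNA fewer expressing cells cannot be told apart from less RNA per cell.

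**Figure D1:**
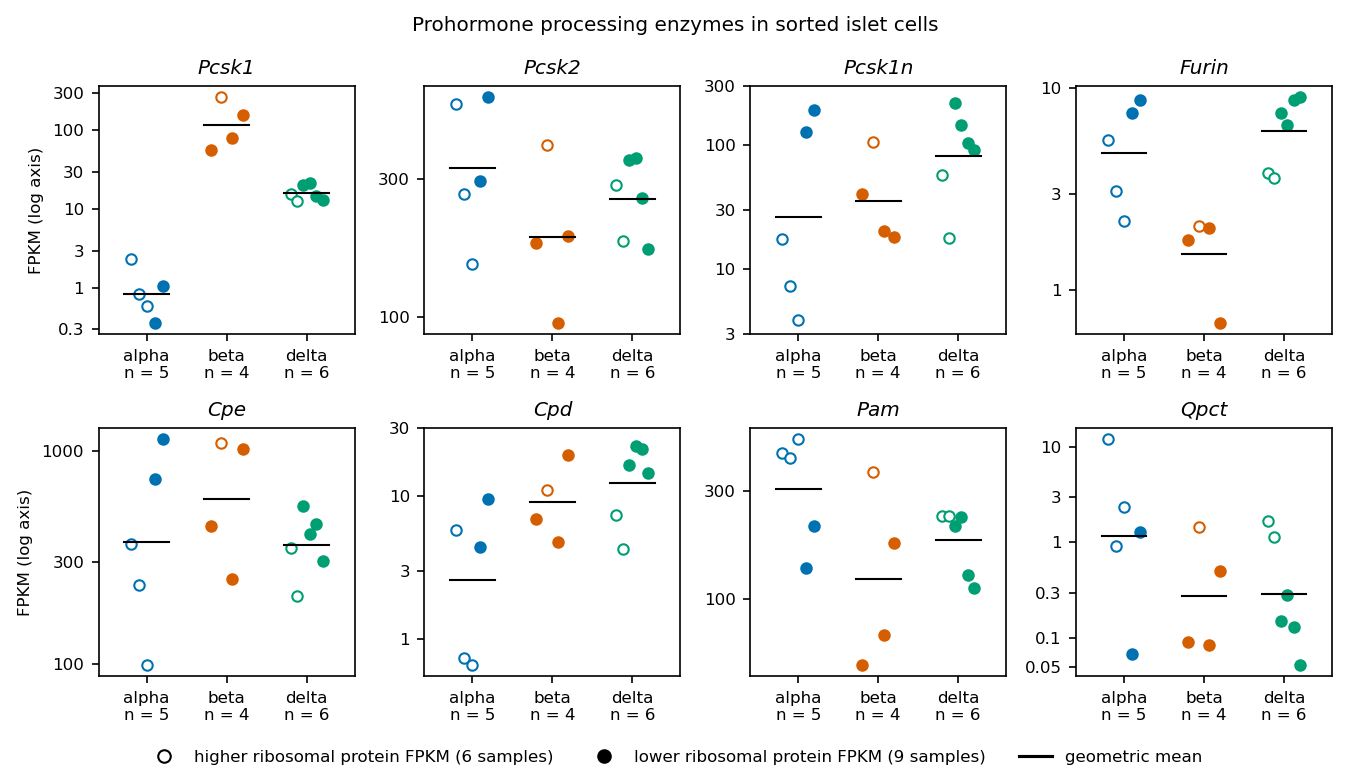
FPKM of the 8 genes on log axes, 1 point per sample (alpha n = 5, beta n = 4, delta n = 6), open for the 6 samples of the higher ribosomal set and filled for the other 9, with lines at the geometric means. Pcsk1 separated all 3 cell types, the 4 beta samples lay lowest for Furin, and for Pcsk1n and Cpd the open alpha and delta points mostly lay below the filled ones.

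Between cell types, the F-test of limma called 2 of the 8 members, Pcsk1 and Furin (adjusted p of 3.14e-07 and 0.026), against 16% of all genes tested. In beta against alpha cells 1 member was called, Pcsk1, against 7.66% of genes (2.84% higher and 4.82% lower in beta cells). In delta against alpha cells it was again Pcsk1, against 6.81% of genes (5.33% higher and 1.48% lower). In delta against beta cells 2 were called, Furin higher and Pcsk1 lower, against 14.7% of genes (11.7% higher and 2.99% lower). With 8 members, 1 or 2 calls lie near these background shares. The members' median log2 difference was -0.21 for beta minus alpha, 0.12 for delta minus alpha and 0.42 for delta minus beta, against -0.13, 0.13 and 0.30 over all genes tested.

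**Figure D2:**
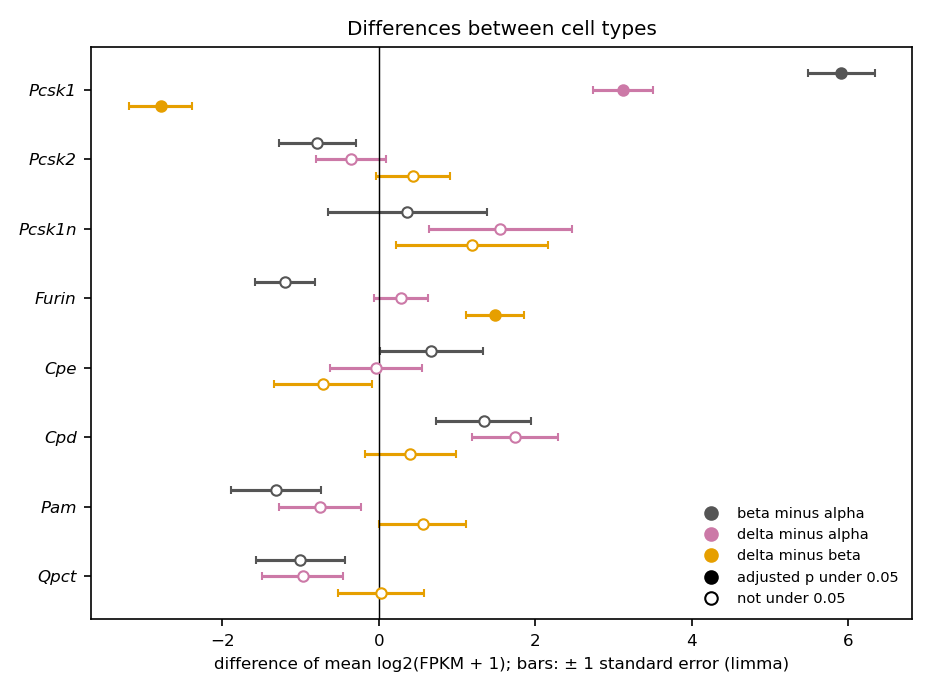
Differences of mean log2(FPKM + 1) between cell types for each member, with bars of 1 standard error from limma, filled where the adjusted p was under 0.05. Only Pcsk1, in all 3 comparisons, and Furin, in delta minus beta, have filled points, and the bars of Pcsk1n are the longest.

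The convertases come first. Pcsk1 (ENSMUSG00000021587, chromosome 13, 75089826 to 75134861, plus strand, GRCm38) encodes prohormone convertase 1/3. It was at 2.36, 0.842, 0.589, 0.365 and 1.07 FPKM in alpha samples 1 to 5. In beta samples 1 to 4 it was at 56.5, 263, 79.7 and 155 FPKM. In the 6 delta samples the lowest, median and highest values were 12.7, 15.1 and 21.4 FPKM. Every beta sample lay above every delta sample, and every delta sample above every alpha sample, with no overlap. The means were 1.05 ± 0.780 (SD, n = 5) in alpha, 138 ± 92.9 (SD, n = 4) in beta and 16.3 ± 3.70 FPKM (SD, n = 6) in delta cells. On the log2(FPKM + 1) scale, which understates changes of low values, beta exceeded alpha cells by 5.92 ± 0.425 (SE, adjusted p = 3.46e-07, limma). Delta exceeded alpha cells by 3.12 ± 0.383 (SE, adjusted p = 5.29e-05). Delta minus beta was -2.79 ± 0.409 (SE, adjusted p = 0.000233).

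The order of the 3 cell types for Pcsk1 was the same within each ribosomal set. In the 9 samples of the lower set the differences were 5.74 (beta minus alpha), 3.42 (delta minus alpha) and -2.31 (delta minus beta), with adjusted p of 0.000304, 0.00302 and 0.00462. In the 6 samples of the higher set, where beta cells have 1 sample that is assumed to vary like the others, they were 6.94, 2.81 and -4.14. There the delta minus alpha difference was past the threshold no longer (adjusted p = 0.0786, limma), and the differences with beta cells rest on 1 beta sample. The sets were chosen with the values known.

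Ins1, Ins2 and Ucn3, which mark beta cells, were set beside Pcsk1 as a measure of beta cell RNA in the other samples, and Iapp was added. The delta mean of Pcsk1 was 11.8% of the beta mean, with single delta samples between 9.18% and 15.5%. The delta means of Ins2, Ins1 and Ucn3, the last a peptide of mature beta cells, were 1.95%, 2.08% and 1.23% of theirs. Iapp, the amylin precursor, stood at 10.6%. Without beta sample 2, a setting chosen after seeing the data, these delta shares were 16.8% for Pcsk1, 2.03% for Ins2, 2.36% for Ins1, 1.54% for Ucn3 and 28.5% for Iapp. In alpha cells Pcsk1 was at 0.755% of the beta mean, below Ins2 at 1.87% and Ins1 at 2.52%. Ucn3 was at 0.907% there.

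The 219 bases before the annotated start of Pcsk1, from RefSeq (GRCm38.p6, chr13:75089607-75089825, plus strand), are shown because Pcsk1 is the member that separated all the cell types, and because its promoter is known for cyclic AMP response elements. Capitals mark TGACGTCA, the full element, and the half-site TGACG where it stands alone.
Pcsk1 promoter: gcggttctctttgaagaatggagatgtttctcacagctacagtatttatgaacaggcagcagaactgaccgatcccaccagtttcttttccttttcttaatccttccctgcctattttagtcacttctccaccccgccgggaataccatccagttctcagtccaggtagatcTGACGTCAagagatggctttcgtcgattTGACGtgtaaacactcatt
Searched on both strands, TGACGTCA was in 508 of 32851 windows of up to 250 bases before a RefSeq start (1.55%) and TGACG, which is also part of the full element, in 5836 (17.8%). Promoter windows were matched for 6 of the 8 members, in 8 windows. The full element was in 1 of them, that of Pcsk1, and the half-site in 3, those of Pcsk1, Pcsk2 and Furin. These matches describe letters in a window and not binding.

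Pcsk2 (ENSMUSG00000027419, chromosome 2, 143546156 to 143816285, plus strand) encodes prohormone convertase 2. It was at 547, 267, 153, 297 and 577 FPKM in alpha samples 1 to 5 and at 181, 393, 95.8 and 192 FPKM in beta samples 1 to 4. In delta samples the lowest, median and highest values were 172, 274 and 354 FPKM. All 3 cell types overlapped, and beta sample 3 was the lowest of all. The log2 differences were -0.79 ± 0.495 (SE, beta minus alpha), -0.35 ± 0.447 (delta minus alpha) and 0.44 ± 0.477 (delta minus beta), with adjusted p of 0.363, 0.769 and 0.593 (limma). Within the lower and the higher set beta minus alpha was -1.47 and 0.48, with adjusted p of 0.106 and 0.76. Delta minus beta was 0.87 and -0.77 there, with adjusted p of 0.187 and 0.614. Pcsk2 shares 260 and 99 exonic bases with 2 antisense genes, whose reads cannot be told apart in libraries not stated to keep the strand.

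Since a ratio of 2 genes in the same sample does not depend on the scaling between samples, Pcsk1 was also set against Pcsk2. In alpha cells Pcsk2 was between 232 and 814 times as abundant as Pcsk1, per length. In beta cells it was between 1.20 and 3.20 times as abundant, and in delta cells between 13.2 and 18.7 times. The alpha range depends on low Pcsk1 values, at 0.842, 0.589 and 0.365 FPKM in alpha samples 2 to 4. With 1 FPKM added to both genes it was 97.1 to 278 times. The log2 ratio of Pcsk1 to Pcsk2 was -8.59 ± 0.763 (SD, n = 5) in alpha, -0.71 ± 0.661 (SD, n = 4) in beta and -4.01 ± 0.187 (SD, n = 6) in delta cells. The 3 cell types did not overlap, and delta cells had the smallest spread. In the higher and lower ribosomal set it was -8.06 and -9.37 in alpha, -0.58 and -0.75 in beta, and -4.04 and -4.00 in delta cells.

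**Figure D3:**
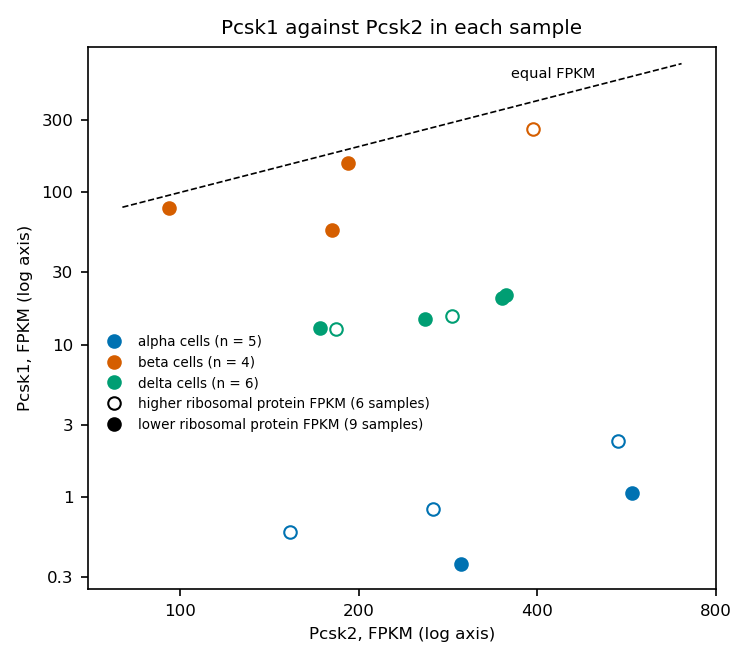
Pcsk1 against Pcsk2 in each of the 15 samples, in FPKM on log axes, coloured by cell type and open for the higher ribosomal set, with a dashed line where both are equal. The 6 delta samples lie in a narrow band, between the 4 beta samples near the line and the 5 alpha samples at the bottom.

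Scg5, which encodes the Pcsk2 chaperone 7B2, is not a member but belongs beside Pcsk2. Its mean was 224 ± 84.7 (SD, n = 5) in alpha, 333 ± 379 (SD, n = 4) in beta and 223 ± 101 FPKM (SD, n = 6) in delta cells, and it passed no comparison. The log2 ratio of Scg5 to Pcsk2 was -0.62 ± 0.610 (SD, n = 5) in alpha, 0.18 ± 0.733 (SD, n = 4) in beta and -0.33 ± 0.487 (SD, n = 6) in delta cells. The cell types overlapped, and the positive beta mean rested on beta sample 2, without which it was -0.15.

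Furin (ENSMUSG00000030530, chromosome 7, 80388585 to 80405436, minus strand) cleaves precursors in the trans-Golgi network. It was at 5.52, 3.10, 2.2, 7.54 and 8.73 FPKM in alpha samples 1 to 5. In beta samples 1 to 4 it was at 1.78, 2.07, 2.03 and 0.692 FPKM. The lowest, median and highest delta values were 3.58, 7.04 and 9.01 FPKM. All 4 beta samples lay below every alpha and delta sample, and alpha and delta cells overlapped. Delta exceeded beta cells by 1.48 ± 0.372 on the log2 scale (SE, adjusted p = 0.0131, limma). Beta minus alpha was -1.20 ± 0.386 (SE, adjusted p = 0.0724) and delta minus alpha 0.29 ± 0.349 (SE, adjusted p = 0.756). Furin shares 118 exonic bases with an antisense gene.

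Both Furin differences that involve beta cells moved with the samples and the scaling. With median-ratio size factors, which shifted the median of all genes by -0.28 in this comparison, delta minus beta was 1.13 (adjusted p = 0.0881, limma), and with quantile normalization it was 1.05 (adjusted p = 0.0713). Without beta sample 4 it was 1.28 (adjusted p = 0.0578). In the lower ribosomal set delta minus beta was 1.88 (adjusted p = 0.00266, limma) and beta minus alpha -1.91 (adjusted p = 0.0114). In the higher set, where beta cells have 1 sample, they were 0.61 and -0.52. Beta minus alpha passed the threshold with the set as a covariate, at -1.43 (adjusted p = 0.0126), and without alpha sample 3, at -1.42 (adjusted p = 0.0343).

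Pcsk1n (ENSMUSG00000039278, chromosome X, 7919822 to 7924410, plus strand) encodes proSAAS, a granin-like precursor that inhibits prohormone convertase 1/3. It was at 17.6, 7.27, 3.88, 128 and 193 FPKM in alpha samples 1 to 5. In beta samples 1 to 4 it was at 40.3, 106, 20.4 and 18.2 FPKM. The lowest, median and highest delta values were 18.0, 97.6 and 219.6 FPKM. The cell types overlapped, with the higher ribosomal set low in alpha and delta cells and high in beta cells. Over all 15 samples the log2 differences were 0.36 ± 1.01 (SE, beta minus alpha), 1.55 ± 0.916 (delta minus alpha) and 1.19 ± 0.976 (delta minus beta), with adjusted p of 0.881, 0.448 and 0.466 (limma).

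Within the lower ribosomal set the beta samples stood apart for Pcsk1n, and alpha and delta samples overlapped. Its mean there was 161 FPKM in alpha (n = 2), 26.3 in beta (n = 3) and 139.8 in delta cells (n = 4). Beta minus alpha was -2.62 (adjusted p = 0.0155, limma) and delta minus beta was 2.37 (adjusted p = 0.00571), while delta minus alpha was -0.25 (adjusted p = 0.91). Of 14041 genes in that fit, 1373 were called for beta against alpha and 2958 for delta against beta. The sets were chosen with the values known, and no Pcsk1n difference passed over all 15 samples, so these calls are a description. In the higher set the means were 9.59 in alpha (n = 3), 106 in beta (n = 1) and 37.7 FPKM in delta cells (n = 2). The differences there were 3.55, -1.68 and 1.87, in the same order, with adjusted p of 0.121, 0.4 and 0.382. The signs of the differences with beta cells were opposite in the 2 sets, but those of the higher set rest on 1 beta sample and passed no test, and the change between sets was not tested. Pcsk1n shares 135 exonic bases with Eras on the other strand.

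Set against its target in the same sample, Pcsk1n was more abundant than Pcsk1, per length, in all 5 alpha and all 6 delta samples and less abundant in all 4 beta samples. The log2 ratio of Pcsk1n to Pcsk1 was 4.94 ± 2.80 (SD, n = 5) in alpha, -1.71 ± 1.10 (SD, n = 4) in beta and 2.37 ± 1.04 (SD, n = 6) in delta cells. It ranged from 2.72 to 8.46 in alpha, from -3.09 to -0.48 in beta and from 0.50 to 3.44 in delta cells, so that beta cells overlapped neither. In the higher and the lower set it was 2.91 and 7.97 in alpha, -1.31 and -1.85 in beta, and 1.20 and 2.95 in delta cells. These ratios are a description, with no test.

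**Figure D4:**
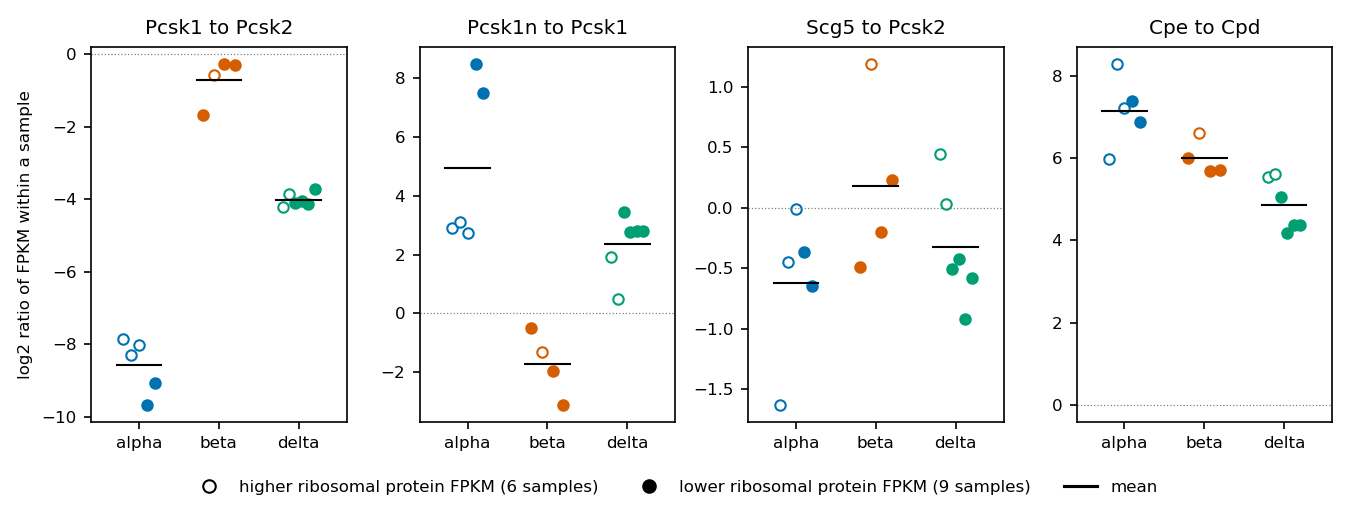
Log2 ratios of FPKM within each sample for 4 pairs of genes, 1 point per sample, open for the higher ribosomal set, with lines at the means of alpha (n = 5), beta (n = 4) and delta cells (n = 6). The 3 cell types do not overlap for Pcsk1 to Pcsk2, beta cells are below 0 for Pcsk1n to Pcsk1, and the cell types overlap for Scg5 to Pcsk2.

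The trimming enzymes followed. Cpe (ENSMUSG00000037852, chromosome 8, 64592542 to 64693054, minus strand) encodes carboxypeptidase E, which removes basic residues in the granule. It was at 364, 233, 98.8, 736 and 1130.2 FPKM in alpha samples 1 to 5 and at 443, 1087, 249.7 and 1019.6 FPKM in beta samples 1 to 4. In delta samples the lowest, median and highest values were 208, 377 and 550.0 FPKM. The cell types overlapped, and alpha samples 4 and 5, of the lower set, were the highest of their group. The log2 differences were 0.67 ± 0.653 (SE, beta minus alpha), -0.04 ± 0.590 (delta minus alpha) and -0.71 ± 0.629 (delta minus beta), with adjusted p of 0.575, 0.994 and 0.504 (limma). Within the lower set beta minus alpha was -0.92 and within the higher set 2.41, with adjusted p of 0.373 and 0.161.

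Cpd (ENSMUSG00000020841, chromosome 11, 76778424 to 76847018, minus strand) encodes carboxypeptidase D, which does the same work in the trans-Golgi network. It was at 5.78, 0.738, 0.663, 4.39 and 9.58 FPKM in alpha samples 1 to 5 and at 6.89, 11.1, 4.82 and 19.4 FPKM in beta samples 1 to 4. In delta samples the lowest, median and highest values were 4.27, 15.6 and 22.5 FPKM. Alpha samples 2 and 3 were the lowest of all, and the 4 delta samples of the lower set were above every alpha sample. The log2 differences were 1.34 ± 0.610 (SE, beta minus alpha), 1.75 ± 0.550 (delta minus alpha) and 0.40 ± 0.587 (delta minus beta), with adjusted p of 0.2, 0.0746 and 0.7 (limma). Delta minus alpha passed the threshold without alpha sample 5, at 2.09 (adjusted p = 0.0293), and without delta sample 2, at 2.02 (adjusted p = 0.0328). Within the lower and the higher set it was 1.37 and 1.31, with adjusted p of 0.243 and 0.502.

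The balance of the carboxypeptidases was described by the ratio of Cpe to Cpd in a sample. Its log2 value was 7.15 ± 0.842 (SD, n = 5) in alpha, 6.01 ± 0.426 (SD, n = 4) in beta and 4.86 ± 0.633 (SD, n = 6) in delta cells. Every delta sample, at up to 5.61, lay below every alpha and beta sample, the lowest of which were 5.98 in alpha and 5.70 in beta cells. In the higher and the lower set it was 7.17 and 7.14 in alpha, 6.61 and 5.81 in beta, and 5.58 and 4.49 in delta cells. Cpe exceeded Cpd by at least 18 times in every sample, per length.

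Of the enzymes that modify the ends of peptides, Pam (ENSMUSG00000026335, chromosome 1, 97795114 to 98095646, minus strand) makes the C-terminal amide, as on amylin. It was at 445, 422, 511, 137 and 210.0 FPKM in alpha samples 1 to 5 and at 51.0, 365, 69.3 and 178 FPKM in beta samples 1 to 4. In delta samples the lowest, median and highest values were 112, 220.3 and 233 FPKM. In alpha and beta cells the samples of the higher set were the highest, and the cell types overlapped. The log2 differences were -1.31 ± 0.578 (SE, beta minus alpha), -0.75 ± 0.522 (delta minus alpha) and 0.56 ± 0.556 (delta minus beta), with adjusted p of 0.186, 0.549 and 0.546 (limma). Without beta sample 2, the only beta sample of the higher set, beta minus alpha was -1.83 (adjusted p = 0.0362). Within the lower and the higher set it was -0.97 and -0.33, with adjusted p of 0.346 and 0.489. Pam shares 188 exonic bases with B230216N24Rik on the same strand.

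Qpct (ENSMUSG00000024084, chromosome 17, 79051906 to 79090378, plus strand) forms pyroglutamate at the N-terminus and was the member with the lowest mean in beta and delta cells. It was at 11.9, 0.916, 2.36, 0.0690 and 1.29 FPKM in alpha samples 1 to 5 and at 0.0916, 1.44, 0.0840 and 0.506 FPKM in beta samples 1 to 4. In delta samples the lowest, median and highest values were 0.0529, 0.218 and 1.69 FPKM. The highest beta and the highest 2 delta values were those of the higher set, and the cell types overlapped. It passed the filter through alpha cells alone, whose mean of 3.31 ± 4.88 FPKM (SD, n = 5) rested on sample 1. The log2 differences were -1.0 ± 0.567 (SE, beta minus alpha), -0.98 ± 0.512 (delta minus alpha) and 0.03 ± 0.546 (delta minus beta), with adjusted p of 0.312, 0.373 and 0.993 (limma). In the higher set they were -0.84, -0.86 and -0.025, with adjusted p of 0.711, 0.694 and 1. In the lower set Qpct did not pass the filter, with means of 0.678 in alpha, 0.227 in beta and 0.155 FPKM in delta cells.

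The other genes of the pathway were counted from fixed lists. Of a list of 7 genes, made of further convertases and the Pcsk2 chaperone gene Scg5, 5 were tested. In the F-test 1 was called, where 16% of all genes were called. It was Pcsk6, the convertase PACE4, at 0.586 ± 0.937 (SD, n = 5) in alpha, 0.977 ± 0.494 (SD, n = 4) in beta and 4.53 ± 1.57 FPKM (SD, n = 6) in delta cells. It passed the filter through delta cells alone, the group in which it is high, so its values are a description and its call is not read as a result. Delta samples overlapped alpha and not beta samples. Of 6 basic carboxypeptidases 2 were tested, and Cpn1 was lower in beta cells, with a beta minus alpha difference of -1.63 (adjusted p = 0.0366, limma), against 4.82% of all genes called lower there. That call was lost in 11 of 24 other settings.

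Of 9 other genes of peptide maturation 8 were tested, of which 1 was called in beta against alpha, 1 in delta against alpha and 3 in delta against beta cells, against 7.66%, 6.81% and 14.7% of all genes. Ctsh, the lysosomal aminopeptidase cathepsin H, had the largest difference among the pathway lists, at 2.95 ± 3.11 (SD, n = 5) in alpha, 1.56 ± 2.05 (SD, n = 4) in beta and 61.9 ± 41.0 FPKM (SD, n = 6) in delta cells. Its lowest delta sample, at 34.0 FPKM, was above the highest alpha sample, at 8.0. Delta exceeded alpha cells by 4.12 ± 0.541 (SE, adjusted p = 9.75e-05, limma) and beta cells by 4.68 ± 0.577 (SE, adjusted p = 4.63e-05). The tyrosylprotein sulphotransferase Tpst1 was higher in delta cells, with a delta minus beta difference of 1.30 ± 0.351 (SE, adjusted p = 0.0198), a call lost without beta sample 1 or 3. Tpst2 was lower in beta cells, with a beta minus alpha difference of -1.30 (adjusted p = 0.0414), and Nrd1, a protease of basic pairs, lower in delta than in beta cells, by -1.65 (adjusted p = 0.0473). The last 2 calls were lost in 17 and 11 of 24 other settings.

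No gene was called among the 5 tested of 6 genes of copper and ascorbate supply, which Pam needs as cofactors, nor among the 5 signal peptidase subunits. At an unadjusted p under 0.05 there were 4 of 15 and 0 of 15 comparisons (limma), where 22.7% of comparisons over all genes tested were under it. Of 25 subunits of the proton pump that acidifies the granule, 19 were tested and 1 was called in the F-test, against 16% of all genes, and 6 of 57 comparisons were under an unadjusted p of 0.05. The gene called was Atp6v0a2, higher in delta than in alpha cells by 1.08 ± 0.250 (SE, adjusted p = 0.0126), a call lost with quantile normalization. Its means were 2.01 ± 0.591 (SD, n = 5) in alpha and 5.40 ± 1.60 FPKM (SD, n = 6) in delta cells. Of 18 peptide precursors 14 were tested, and 10 were called in the F-test, against 16% of all genes, among them the hormones by which the cells were chosen. Another of them, Vgf, passed the filter through alpha cells alone, the group in which it is high. Its means were 1.76 in alpha, 0.295 in beta and 0.109 FPKM in delta cells. The count is therefore not read as a result.

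**Figure D5:**
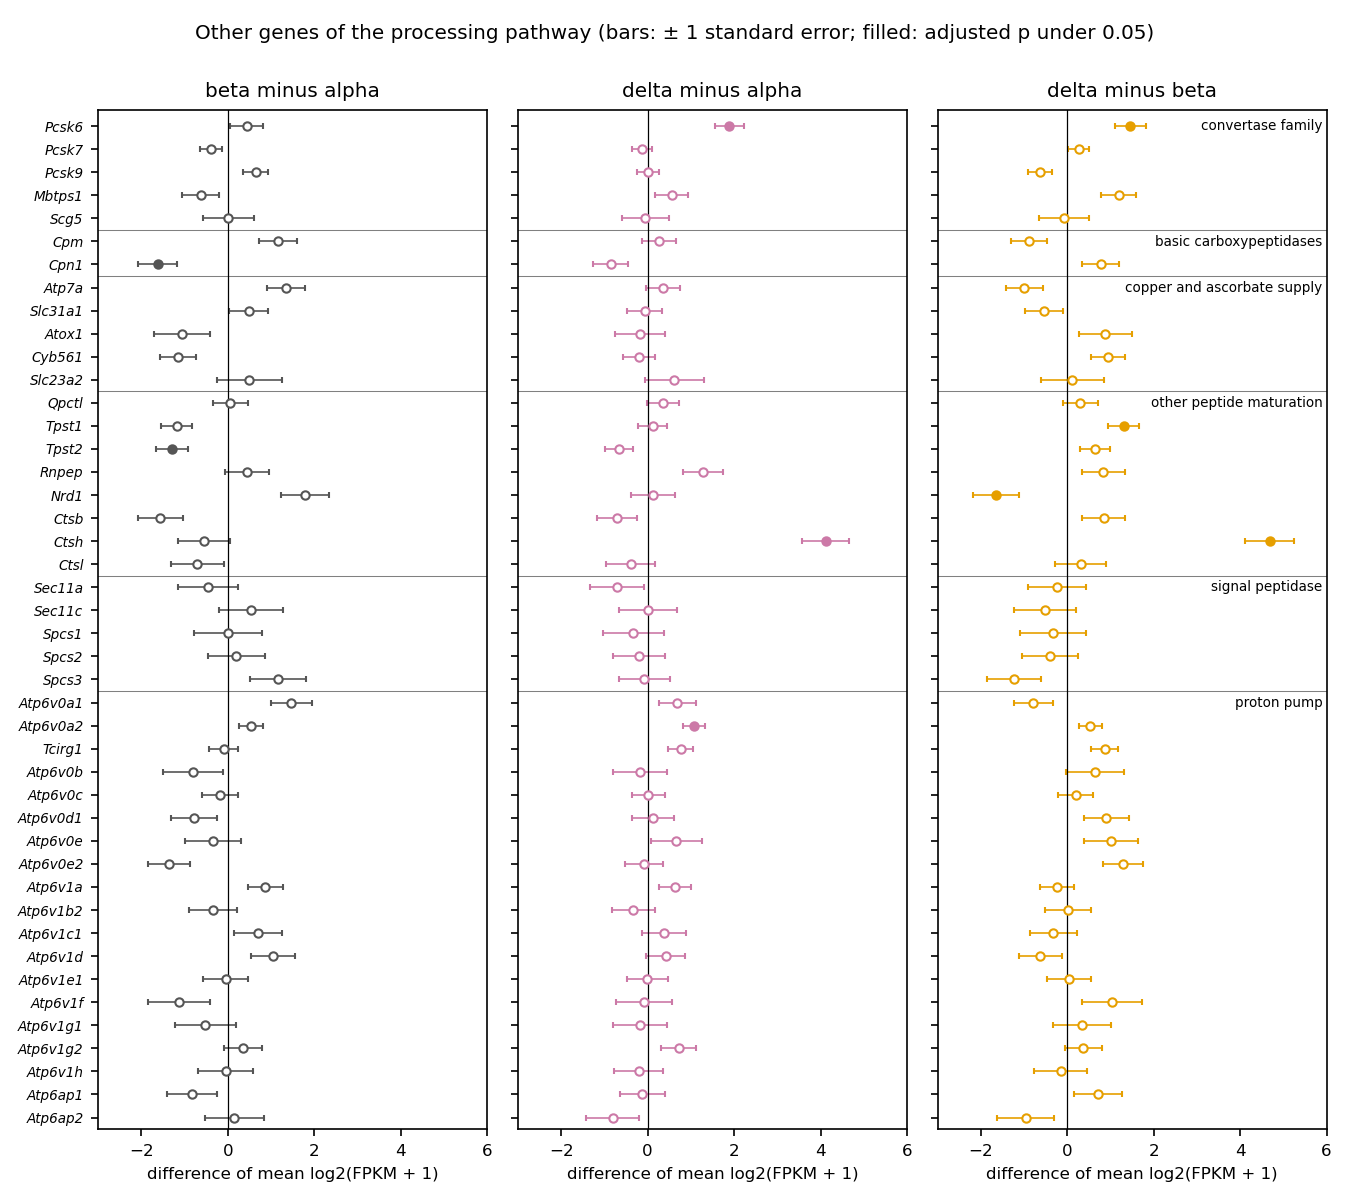
Differences of mean log2(FPKM + 1) for the tested genes of 6 pathway lists, 1 panel per comparison, with bars of 1 standard error, filled where the adjusted p was under 0.05. The delta cell excess of Ctsh, at 4.12 over alpha and 4.68 over beta cells, stands far to the right of all other points.

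The genes whose centred log2(FPKM + 1) profile over the 15 samples was closest to that of Pcsk1 were Glp1r, Iapp and Fkbp1b, at root mean square differences of 0.67, 0.80 and 0.84, where the profile of Pcsk1 itself had an SD of 2.43. Glp1r, the receptor for glucagon-like peptide 1, had means of 2.36, 207 and 39.8 FPKM in alpha, beta and delta cells. Those closest to Furin were Grik5, Fam100a and Prkd2, at 0.26, 0.29 and 0.30, where Furin itself had an SD of 0.81. The 15 points share cell types and ribosomal sets, and the likeness is a description.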

How the data were processed

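The members and gene lists were chosen with earlier results of these data known. The authors amplified the RNA with a NuGEN system not stated to keep the strand, sequenced it as single reads, aligned them to GRCm38 with TopHat and deposited a table of Cufflinks 2.2.1 FPKM values, with a column for each sample. The authors' edgeR comparison used read counts, which were not used here, and the scaling between libraries is not given in the sources used here. Genes with a mean above 1 FPKM in at least 1 cell type were compared with limma 3.58.1 in R 4.3.3 (lmFit, eBayes with trend) on log2(FPKM + 1), all 15 samples in one fit, no covariate, Benjamini-Hochberg adjustment over 14405 genes and a call at an adjusted p under 0.05. The labels number the samples and do not say that they are separate pools. Alpha and beta samples were both sorted from Glu-Venus islets and may share mice, so p-values measure only the spread between these samples. The fit was tested on simulated data. Ratios were taken within samples on FPKM with no pseudocount. The ribosomal sets were parted at 50000 FPKM, a limit set with the values known. Depth was judged from transcripts over 1000 nt. Genes named are the members, list genes called in a comparison and the 3 nearest profiles of each member called in the F-test. Coordinates are from GENCODE M21 and promoters from RefSeq (GRCm38.p6). Alternatives were a pseudocount of 0.1, a filter of 5 FPKM or none, eBayes without trend, 2 other scalings, the set as a covariate, fits of 2 cell types, the replicate block and each sample left out. Fits within a ribosomal set were added after seeing the data. Python 3.11.15 with numpy 2.4.6, pandas 2.3.3 and matplotlib 3.10.9 did the rest.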

Additional observations from a re-analysis of the deposited data

Results flagged for a closer look

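Furin in beta cell sample 4 was at 0.692 FPKM, where the other 3 beta samples lay between 1.78 and 2.07. On the log2(FPKM + 1) scale its gap to the nearest sample was 0.831 of the range of the group, just above the 95% critical value of Dixon's test for 4 samples. All 8 members and 4 ratios were examined in each of 3 cell types, 36 groups in all, and this was the 1 group with such a sample. Chance alone gives about 1 in 20 groups, or 1.8 of 36. Without this sample, delta minus beta for Furin was 1.28 on the log2 scale (adjusted p = 0.0578, limma), where it was 1.48 (adjusted p = 0.0131) with all samples.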

How the results depend on the processing

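The 3 Pcsk1 calls kept their direction and stayed under an adjusted p of 0.05 (limma) in all 24 other settings run except the fits within a ribosomal set, between 5.53 and 6.90 for beta minus alpha, 2.95 and 4.04 for delta minus alpha, and -3.20 and -2.40 for delta minus beta. The number of members called in the F-test, 2 with all samples, was 1 with median-ratio size factors, quantile normalization and in the higher ribosomal set, 3 in the lower set, and 1 to 3 when 1 sample was left out (1 without beta 1, beta 4, delta 3 or delta 5, and 3 without alpha 5 or delta 2). For beta against alpha it was 2 with the set covariate and 3 in the lower set, where the main count was 1, and 1 to 2 when 1 sample was left out. Over all genes, 1104 of 14405 were called in the main fit, 1439 of 14405 with the set covariate and 1373 of 14041 in the lower set. For delta against alpha the number of members called was 1 to 2 when 1 sample was left out, and 0 in the higher set (delta cells n = 2). For delta against beta the count of 2 became 1 with median-ratio size factors, with quantile normalization and in the higher set, 3 in the lower set, and was 1 to 2 when 1 sample was left out. With ratios of FPKM + 1 the alpha log2 ratio of Pcsk1 to Pcsk2 was -7.41, that of Pcsk1n to Pcsk1 was 3.87 (4.94 without the added 1) and that of Cpe to Cpd 6.51 (7.15). Deviations of same-numbered samples from their group means had r from -0.15 to 0.28 (13 pairs, 5 over 0.1). Among alpha 2, beta 2 and delta 2, all of the higher set, r was 0.27 (alpha and beta), 0.28 (alpha and delta) and 0.27 (beta and delta). For alpha 5 and delta 5 it was 0.25. Samples of different number were not compared, so the check cannot settle pairing, and the numbers were not taken to pair samples. With a replicate block the count of members was 1 in the F-test and 1 for delta against beta, where 2001 of 14405 genes were called. With that block Furin delta minus beta was 1.23 (adjusted p = 0.0668, limma) and Cpe delta minus alpha turned to 0.011.

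Values that changed sign belonged to differences that passed no test with all samples. With quantile normalization Pcsk2 delta minus alpha was 0.010, Cpe delta minus alpha 0.31 and Qpct delta minus beta -0.26. With the set covariate Pcsk1n beta minus alpha was -0.28 and Qpct delta minus beta -0.074. Leaving out 1 sample moved Pcsk1n beta minus alpha from -0.27 to 1.06, Cpe delta minus alpha to between -0.51 and 0.36, and Qpct delta minus beta to between -0.15 and 0.28, and brought the beta ratio of Scg5 to Pcsk2 to -0.15. In the lower set Pcsk1n beta minus alpha was -2.62 and delta minus alpha -0.25, Cpe beta minus alpha -0.92 and Furin delta minus alpha -0.036. In the higher set Pcsk2 was at 0.48 (beta minus alpha) and -0.77 (delta minus beta), Cpe delta minus alpha at 0.40, and delta minus beta at -1.68 for Pcsk1n, -0.86 for Cpd, -0.65 for Pam and -0.025 for Qpct. The cause was not tested. Median-ratio size factors moved the median of all genes by 0.13 (beta minus alpha), -0.12 and -0.28 (delta minus beta), and quantile normalization by 0.11, -0.17 and -0.30. Over the members and all settings other than the fits within a set, 547 of 573 values kept their direction and side of the threshold, 4 lost a call, 5 gained one and 17 changed sign. In the fits within a set, 30 of 45 did so, 2 lost a call, 2 gained one and 11 changed sign. Of those that changed sign, Pcsk1n beta minus alpha in the lower set also passed the threshold. The 2 lost calls were Pcsk1 delta minus alpha and Furin delta minus beta in the higher set, whose fit has 1 beta sample. Depth was unknown in 9 samples, which limits statements on low values such as those of Qpct and of Pcsk1 in alpha cells, and no floor of detection is given.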
